A study of Mus musculus with 2 samples.

Results

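*Axl*, *Lilrb4a* and *Ly6a* were examined in islet-infiltrating regulatory T cells (Tregs) of NOD mice, a strain that spontaneously develops type 1 diabetes, with and without CD137. The 3 genes are 3 of the 27998 rows of the deposited tables. They were chosen because their transcripts were among those lowest in knockout Tregs relative to wild type, so that difference is described here and was not tested. The share of cells in which each was found, its link to interferon-induced transcripts and to *Tnfrsf9*, and its level in CD8 T cells were then read from the same tables.

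Each genotype was represented by 1 single-cell library. The wild type was NOD.Foxp3-EGFP and the knockout NOD.Tnfrsf9-/-.Foxp3-EGFP, which lacks CD137 in every cell and not only in Tregs. Both strains carry a green fluorescent reporter of *Foxp3*, the lineage-defining transcription factor of Tregs. Islet cells of 6 prediabetic females of 9 to 10 weeks were pooled per strain, and GFP-marked CD4 T cells and CD8 T cells were sorted on CD45.1 without CD11b, then sequenced together. With pooled animals and no second library, genotype, pool and library cannot be told apart, and every interval given here is a 95% interval that covers counting error only.

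The tables held 2804 wild-type and 2991 knockout barcodes with 19904506 and 19639995 UMIs (unique molecular identifiers, which count captured RNA molecules once each). Of these, 2714 and 2915 cells had 200 to 5000 detected genes and at most 20% mitochondrial UMIs. A Treg was a cell without *Cd8a* or *Cd8b1* UMIs and with at least 1 UMI of *Cd4*, *Foxp3*, *Il2ra* or *Ikzf2*, which gave 1552 wild-type and 1444 knockout Tregs with medians of 4302 and 4308.5 UMIs per cell. A CD8 T cell had at least 2 UMIs of *Cd8a* and *Cd8b1* and none of *Cd4* or *Foxp3*, which gave 891 and 1200 cells with medians of 6076 and 5275 UMIs. UMIs of at least 2 of 6 other Treg marker genes were present in 97.1% of the wild-type Tregs and in 96.0% of the knockout ones, but also in 63.4% and 50% of the CD8 T cells. Their summed level, in counts per 1000000 UMIs of the class (CPM), was 5089.7 and 4329.7 in Tregs against 681 and 662 in CD8 T cells. The libraries shared 16 barcodes.

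The targeted gene matched the labels in direction. *Tnfrsf9*, which encodes CD137, had 2993 UMIs in wild-type and 898 in knockout Tregs, or 337 and 110 CPM. Knockout Tregs thus still held UMIs of the gene, in 29.6% of cells against 50.2% in the wild type. Which exons the knockout allele lacks was not given in the sources used here, so these counts say nothing of the protein.

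The 3 genes encode cell surface proteins of different kinds. AXL is a receptor tyrosine kinase of the TAM family, named for TYRO3, AXL and MERTK. It binds GAS6, which bridges it to phosphatidylserine on dying cells, and it is best known in macrophages and dendritic cells as a brake on innate responses. *Lilrb4a* encodes a leukocyte immunoglobulin-like receptor, also called gp49B, whose cytoplasmic immunoreceptor tyrosine-based inhibitory motifs recruit phosphatases such as SHP-1. *Ly6a* encodes Sca-1, a small protein held in the membrane by a glycosylphosphatidylinositol anchor, which activated T cells carry and which interferons induce. CD137 is a costimulatory receptor of the tumour necrosis factor receptor superfamily that T cells display after activation and that Tregs display at a high level.

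In the GRCm38 annotation (GENCODE vM21), *Axl* (ENSMUSG00000002602) lies on the minus strand at chr7:25757273-25788705 and *Ly6a* (ENSMUSG00000075602) on the minus strand at chr15:74994877-74998031. *Lilrb4a* lies on the plus strand at chr10:51490956-51496611. Its row carries the identifier ENSMUSG00000062593, which that annotation gives to a readthrough gene, *Gm49339*, at chr10:51480612-51496613, spanning both *Lilrb4a* and its neighbour *Lilr4b* at chr10:51480632-51486703. The pair are near copies, with 871 of 907 aligned coding bases identical (96.0%). UMIs of *Lilrb4a* are therefore uncertain, since a read that fits both genes could be lost or assigned to either. These libraries read the 3' end of transcripts, where 112 of the last 500 bases could be aligned between the copies and 106 of those were identical (94.6%). The 30 coding bases with most differences are shown to let the copies be told apart by eye, with the 7 differing bases in capitals. They lie toward the 5' end of the gene, away from the end that was read.
Lilrb4a (chr10:51491604-51491633, plus strand): GccaagttcaaCattcCaAGCatgacaAcc
Lilr4b (chr10:51481310-51481339, plus strand): AccaagttcaaAattcGaTTTatgacaGcc

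Interferon exposure was read from the summed UMIs of *Isg15*, *Ifit1* and *Ifit3*, whose products are a ubiquitin-like modifier and RNA-binding antiviral proteins. Their promoters are shown because they carry the element by which type I interferon acts, the interferon-stimulated response element (ISRE), searched as GAAA, any 2 bases and GAAA on both strands of the 250 bases before to 50 after each RefSeq start (GRCm38.p6). The matching bases of 1 element per gene are in capitals, on the plus strand of the chromosome for *Ifit1* and *Ifit3* and on the minus strand for *Isg15*.
Isg15 (chr4:156200865-156200894): aaaggaaaccGAAACAGAAAatagctctgg
Ifit1 (chr19:34640794-34640823): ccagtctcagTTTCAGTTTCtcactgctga
Ifit3 (chr19:34583397-34583426): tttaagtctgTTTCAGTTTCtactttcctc
The window of *Isg15* held 3 matches and those of *Ifit1* and *Ifit3* held 2 each, whereas 3.44% of 32851 promoters held any. The *Axl* window held no match to this motif, to the interferon-gamma-activated sequence TTCNNNGAA (in 8.30% of promoters) or to the AP-1 motif TGANTCA (in 7.81%), each counted on its own on both strands. Neither of the 2 *Tnfrsf9* windows held the response element, and 1 of them held 1 match to each of the other motifs. The promoter set had no entry for *Lilrb4a* or *Ly6a*, so their promoters were not searched and the members cannot be compared in this.

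All 3 genes were lower in knockout than in wild-type Tregs. *Axl* had 284 UMIs in wild-type and 106 in knockout Tregs, which is 31.9 CPM (28.3 to 35.9) against 13.0 CPM (10.6 to 15.7). The log2 ratio of knockout over wild type was -1.30 (-1.63 to -0.97), or 2.46-fold lower. *Lilrb4a* had 184 UMIs against 60, or 20.7 against 7.36 CPM. Its log2 ratio was -1.49 (-1.94 to -1.06), or 2.81-fold lower. *Ly6a* was the best sampled of the members, with 20175 UMIs in wild-type and 8404 in knockout Tregs, or 2270 against 1031 CPM, and a log2 ratio of -1.14 (-1.18 to -1.10), or 2.20-fold lower.

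All 3 genes were more than 1.5-fold lower, where 2.19% of the 10157 genes with at least 50 UMIs in Tregs were. All 3 were also more than 2-fold lower, as were 0.443% of genes, and 0 of the 3 were among the 5.21% of genes more than 1.5-fold higher. As the members were chosen on this contrast, nothing is read from either count. The median log2 ratio over all those genes was 0.04.

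In the order of log2 ratios among 9003 genes with at least 100 Treg UMIs, *Lilrb4a* was 3rd from the lowest, *Axl* 6th and *Ly6a* 8th. The lowest was *Dgki*, a diacylglycerol kinase gene with 81 against 23 UMIs, followed by *Tnfrsf9* itself at -1.61. *Mt2*, a metallothionein gene, stood at -1.43 and *Tmem163* at -1.42, between *Lilrb4a* and *Axl*. *Gzmk*, which encodes the cytotoxic protease granzyme K, stood at -1.21 between *Axl* and *Ly6a*. Just above *Ly6a* came the chemokine gene *Ccl3* at -1.12 and *Marcksl1* at -1.10. Their intervals overlap those of the members beside them, so neighbours in this order are not told apart by counting. Among the 218 genes with at least 5000 UMIs in wild-type Tregs, *Ly6a* had the lowest ratio and *Lag3* the next lowest at -0.61.

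**Figure D1:**
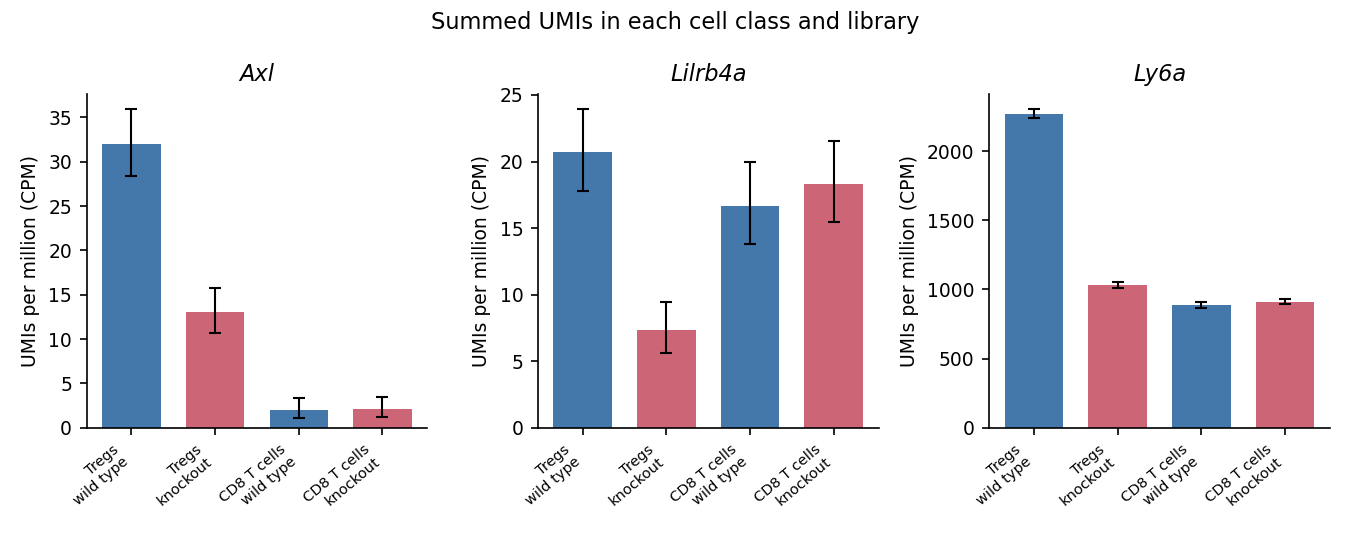
Level of *Axl*, *Lilrb4a* and *Ly6a* in CPM, drawn as bars from 0 on a linear axis with its own range for each gene, in Tregs and CD8 T cells of the wild-type (blue) and knockout (red) libraries, with exact 95% Poisson intervals. In Tregs each gene is lower in the knockout (*Axl* 31.9 against 13.0 CPM), while in CD8 T cells the intervals of the genotypes overlap (*Ly6a* 888 against 913 CPM).

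*Axl* was a sparse transcript found in fewer knockout Tregs. In the wild type 205 of 1552 Tregs held an *Axl* UMI (13.2%, 11.6 to 15.0), against 84 of 1444 in the knockout (5.82%, 4.67 to 7.15). The shares differed by -7.39 percentage points (-9.48 to -5.32). Positive cells held few copies in either library, with means of 1.39 and 1.26 UMIs, at most 4, and exactly 1 in 67.8% and 81.0% of them. At such low counts, fewer cells with the transcript and less of it in each cell cannot be told apart. When each cell was thinned at random to 2000 UMIs, leaving out 76 and 55 shallower Tregs, the shares were 6.10% and 2.23%, a difference of -3.87 points (-5.36 to -2.42).

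CD8 T cells of the same libraries served as the background for *Axl*, though this class was not free of myeloid transcripts, as given below. There the shares were 1.23% and 1.17%, at greater depth than in Tregs. After thinning, 0 of 874 wild-type CD8 T cells had an *Axl* UMI, which allows up to 0.421% by the exact binomial interval, and 2 of 1184 knockout cells did (0.169%). Both Treg shares were above these levels. By CPM, Tregs held 16.0-fold more *Axl* than CD8 T cells in the wild type (log2 4.001, 3.23 to 4.89) and 6.05-fold more in the knockout (log2 2.60, 1.85 to 3.43).

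*Lilrb4a* was found in 118 wild-type Tregs (7.60%, 6.33 to 9.04) and 46 knockout Tregs (3.19%, 2.34 to 4.23), a difference of -4.42 points (-6.05 to -2.82). Positive cells held means of 1.56 and 1.30 UMIs and at most 6. After thinning the shares were 4.34% and 1.66%, a difference of -2.68 points (-3.97 to -1.45). Unlike *Axl*, the gene was present in CD8 T cells at a like level, in 9.32% and 8.50% of these deeper cells and in 2.86% and 3.13% of them after thinning. At equal depth the CD8 shares thus lay between those of wild-type and knockout Tregs. The thinned share of Tregs minus that of CD8 T cells was 1.48 points (-0.14 to 2.96) in the wild type. In the knockout it was -1.47 points (-2.75 to -0.29), an interval that excludes 0. No class in the libraries served as a background for *Lilrb4a*.

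The level of *Lilrb4a* in Tregs relative to CD8 T cells was not alike in the libraries, a difference that was not tested. Wild-type Tregs were near wild-type CD8 T cells (log2 0.31, -0.03 to 0.66), whereas knockout Tregs were 2.49-fold below knockout CD8 T cells (log2 -1.32, -1.78 to -0.87). The neighbouring copy *Lilr4b* had 49 and 30 UMIs in Tregs, with a log2 ratio of -0.58 (-1.29 to 0.10) whose interval includes 0. It had 70 and 100 UMIs in CD8 T cells.

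**Figure D2:**
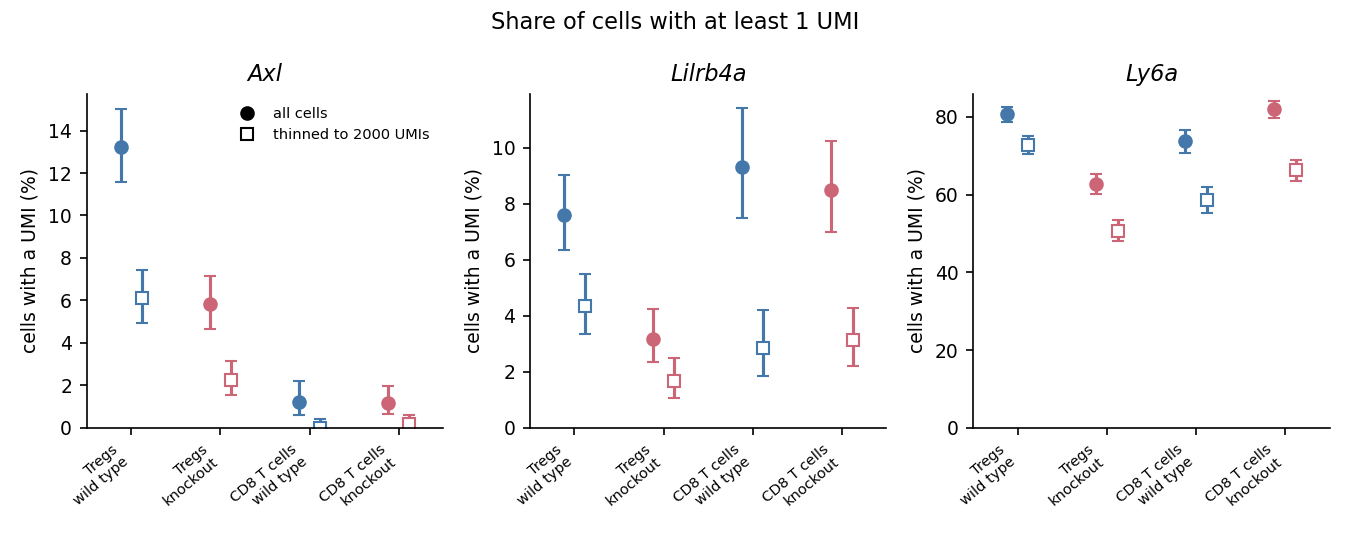
Share of cells in percent with at least 1 UMI of each gene in Tregs and CD8 T cells of the wild-type (blue) and knockout (red) libraries, for all cells (filled circles) and after thinning to 2000 UMIs (open squares), with exact 95% binomial intervals. The Treg shares of each gene are lower in the knockout at both depths, and the *Ly6a* share is higher in knockout than in wild-type CD8 T cells.

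*Ly6a* was a common transcript, and its distribution over cells lay lower in knockout Tregs. It was found in 1252 wild-type Tregs (80.7%, 78.6 to 82.6) and 907 knockout Tregs (62.8%, 60.3 to 65.3), a difference of -17.9 points (-21.0 to -14.7). The median was 5 UMIs per cell against 2, the upper quartile 17 against 6 and the highest cell 220 against 119. Cells with at least 20 UMIs were 21.3% of Tregs in the wild type against 8.45% in the knockout. Among positive cells the mean was 16.1 against 9.27 UMIs, so both the number of positive cells and the UMIs per positive cell were lower. After thinning the shares were 72.8% and 50.7%, a difference of -22.1 points (-25.6 to -18.6). The 3 richest wild-type cells held 2.60% of its UMIs and the 3 richest knockout cells 3.87%, so the level did not rest on a few cells.

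Of the CD8 T cells, 73.8% held *Ly6a* in the wild type against 82.1% in the knockout, the opposite order to Tregs. The median was 4 UMIs in both. Wild-type CD8 T cells were more spread out, with more cells at 0 (26.2% against 17.9%) and more cells with at least 20 UMIs (9.54% against 5.67%). Wild-type Tregs held 2.55-fold more *Ly6a* by CPM than wild-type CD8 T cells (log2 1.35, 1.31 to 1.39), and knockout Tregs 1.13-fold more than knockout CD8 T cells (log2 0.18, 0.13 to 0.22).

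**Figure D3:**
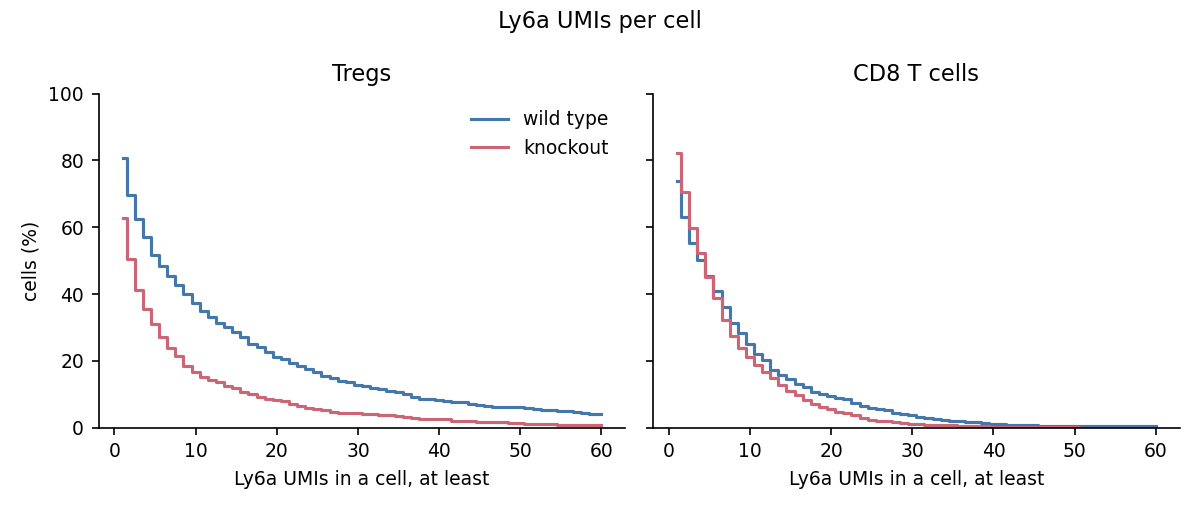
Share of cells in percent that hold at least a given number of *Ly6a* UMIs, from 1 to 60, for Tregs and CD8 T cells of the wild-type (blue) and knockout (red) libraries. The knockout Treg curve starts at 62.8% against 80.7% in the wild type and stays below it, while the curves of the CD8 T cells cross.

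Cells with at least 2 of the members were a larger share of wild-type than of knockout Tregs. All 3 were found in 25 wild-type Tregs (1.61%) and 2 knockout Tregs (0.139%), exactly 2 in 246 (15.9%) and 99 (6.86%), and none in 273 (17.6%) and 510 (35.3%). After thinning, all 3 were found in 7 wild-type and 0 knockout Tregs. Each member was chosen for being lower in knockout Tregs, which by itself makes such cells fewer there, so nothing is read from these counts. In thinned wild-type Tregs *Axl* was found in 9 of 64 cells with *Lilrb4a* (14.1%, 6.64 to 25.02) and in 5.74% of the others. Given *Ly6a*, *Axl* was found in 6.70% of cells against 4.49% without it, and *Lilrb4a* in 4.74% against 3.24%. Spearman's correlation over these 1476 cells of 1 library was 0.071, 0.046 and 0.070 for the pairs, which describes a weak tie in sparse counts. In knockout Tregs *Axl* was found in 0 of 23 thinned cells with *Lilrb4a*, a number too small to set against the wild type.

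The members also differed in which other genes varied with them over wild-type Tregs. Of 7641 genes compared with *Ly6a*, the highest Spearman correlation was 0.405 for the noncoding gene *AW112010*, then 0.397 for *B2m*, the light chain of MHC class I, 0.380 for the serpin *Serpina3g*, 0.360 for *Tnfrsf4*, the costimulatory receptor OX40, and 0.288 for *Cd74*, the MHC class II invariant chain. Over knockout Tregs their correlation with *Ly6a* lay between 0.138 and 0.326. For *Lilrb4a* the highest were *Bcl2a1b* (0.171), *Csf1*, *Id2*, *Bcl2a1d* and *Itgav* (0.135), among them a pair of antiapoptotic genes of the BCL2 family. For *Axl* they were *Acp6* (0.128), *Pitpna*, *Podnl1*, *Klhdc10* and *Srgap3* (0.113), whose correlation over knockout Tregs was between -0.03 and 0.04. The correlation was taken over 1476 wild-type and 1389 knockout cells thinned to the same depth, and these genes are named by their rank alone.

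The study asked how CD137 deficiency affects Tregs and CD8 T cells, and the CD8 T cells, which the choice of genes did not use, gave a different picture. *Axl* had 14 UMIs in wild-type and 17 in knockout CD8 T cells, or 1.996 against 2.15 CPM, with a log2 ratio of 0.11 (-1.001 to 1.24). *Lilrb4a* had 117 against 145 UMIs, or 16.7 against 18.3 CPM, with a log2 ratio of 0.14 (-0.22 to 0.50). *Ly6a* had 6232 against 7217 UMIs, or 888 against 913 CPM, with a log2 ratio of 0.04 (-0.01 to 0.09). The intervals all include 0, and that of *Axl* is too wide to exclude a 2-fold difference in either direction. Those of *Lilrb4a* and *Ly6a* lie above their intervals in Tregs. As the genes were chosen for low values in Tregs, nothing more is read from that. Neither *Lilrb4a* nor *Ly6a* was past 1.5-fold in CD8 T cells. Of the 9770 genes with at least 50 UMIs there, 6.8% were lower and 11.4% higher by that much, and 2.02% were more than 2-fold lower. *Axl* had too few UMIs in CD8 T cells to be among those genes.

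The signs of the CD8 ratios depended on how they were computed. For *Ly6a* the log2 ratio was -0.02 with TMM scaling and -0.14 (-0.23 to -0.05) in thinned cells. *Axl* and *Lilrb4a* were at -0.26 and -0.10 with stricter cell limits and at -0.10 and -0.12 with equal weight per cell. With TMM scaling they stayed above 0, at 0.05 and 0.08. *Tnfrsf9* was lower in knockout CD8 T cells too (747 against 253 UMIs, log2 -1.73, -1.95 to -1.53). The make-up of the class also differed, as *Gzmk*-positive cells made up 42.9% of it in the wild type against 13.25%. The CD8 ratios are therefore averages over a class whose *Gzmk*-positive share was not alike in the libraries. Weighting the knockout *Tnfrsf9* groups of CD8 T cells as in the wild type gave 0.27, 0.38 and -0.18 for *Axl*, *Lilrb4a* and *Ly6a*. As *Tnfrsf9* is the targeted gene, groups by its UMIs need not hold matching cells, so these values do not stand for a matched mix.

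*Ly6a* was the member linked to interferon. In wild-type Tregs *Ly6a* stood at 1851 CPM in cells with 0 UMIs of *Isg15*, *Ifit1* and *Ifit3*, 3139 CPM in cells with 1 to 2 and 3843 CPM in cells with 3 or more. In knockout Tregs the same steps were 864, 1320 and 2722 CPM. The log2 ratio of cells with at least 1 interferon UMI over cells with 0 was 0.83 (0.79 to 0.87) in the wild type and 0.86 (0.80 to 0.93) in the knockout. In thinned cells Spearman's correlation was 0.148 and 0.141. The link was present in CD8 T cells as well, at log2 0.91 (0.83 to 0.98) and 0.73 (0.66 to 0.80).

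*Axl* and *Lilrb4a* showed no such step upward. *Axl* stood at 32.6, 29.4 and 33.2 CPM over the same wild-type groups, with a log2 ratio of -0.11 (-0.50 to 0.27) for at least 1 over 0. *Lilrb4a* stood at 23.0, 14.5 and 17.5 CPM, with a log2 ratio of -0.60 (-1.15 to -0.08). That interval included 0 in thinned cells (-0.40, -1.59 to 0.61), without the 3 richest cells (-0.45), among Tregs with a *Foxp3* or *Il2ra* UMI (-0.51), at 3 or more interferon UMIs (-0.39), without Tregs holding CD8 T genes (-0.23) and with *Ifit1* and *Ifit3* alone (-0.75), so no link of *Lilrb4a* is read from it. In knockout Tregs the ratios were -0.24 (-0.99 to 0.45) and -0.31 (-1.36 to 0.62), on 22 and 12 UMIs in the cells with interferon transcripts.

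Fewer knockout Tregs carried interferon transcripts, at 20.01% against 26.0%. The part of this in the differences between the genotypes was not tested, and the ratios within interferon levels are given as values. In cells with none of the transcripts the log2 ratio of *Ly6a*, knockout over wild type, was -1.10 (-1.15 to -1.05). In cells with 1 to 2 it was -1.25 (-1.32 to -1.18), and in cells with 3 or more, 86 wild-type and 47 knockout Tregs, it was -0.50 (-0.61 to -0.39). *Axl* stood at -1.27 and -1.22 in the first pair of groups and *Lilrb4a* at -1.57 and -1.35. In the third group *Axl* had 19 against 2 UMIs and *Lilrb4a* 10 against 3, too few to place. Weighting the knockout interferon groups as in the wild type gave log2 ratios of -1.32, -1.50 and -1.06 for *Axl*, *Lilrb4a* and *Ly6a*.

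*Lilrb4a* and *Ly6a* were higher in Tregs with more *Tnfrsf9*, as was *Axl*, though less certainly after thinning. In wild-type Tregs with 0, 1 to 2 and 3 or more *Tnfrsf9* UMIs, *Axl* stood at 24.7, 31.5 and 40.9 CPM. *Lilrb4a* stood at 14.8, 19.7 and 28.5 CPM and *Ly6a* at 1831, 2193 and 2854 CPM over the same cells. The log2 ratio of at least 1 over 0 was 0.56 (0.19 to 0.95) for *Axl*, 0.72 (0.24 to 1.21) for *Lilrb4a* and 0.48 (0.43 to 0.52) for *Ly6a*. Among the Tregs with a *Foxp3* or *Il2ra* UMI the first pair of intervals included 0, at 0.33 (-0.19 to 0.87) and 0.46 (-0.16 to 1.12). Since cells with more *Tnfrsf9* UMIs were deeper, shares were compared after thinning, and *Axl* was then found in 4.78%, 7.34% and 7.30% of the groups where the unthinned shares were 7.89%, 14.4% and 23.0%. In thinned cells the log2 ratio for *Axl* was 0.38 (-0.23 to 0.98), with an interval that includes 0, while that for *Lilrb4a* was 1.004 (0.33 to 1.68).

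Knockout Tregs that still held *Tnfrsf9* UMIs showed the same direction. There the log2 ratios of at least 1 over 0 were 0.58 (-0.00 to 1.16), 0.85 (0.07 to 1.63) and 0.57 (0.51 to 0.63). In Tregs without a *Tnfrsf9* UMI the log2 ratios of knockout over wild type were -1.16, -1.38 and -1.06 for *Axl*, *Lilrb4a* and *Ly6a*. In Tregs with 1 to 2 they were -1.001, -1.37 and -0.79. In Tregs with 3 or more they were -1.14, -0.72 (-1.65 to 0.11) and -1.04, that of *Lilrb4a* with an interval that includes 0. Weighting the knockout *Tnfrsf9* groups as in the wild type gave -1.10, -1.04 and -0.97, against -1.30, -1.49 and -1.14 unweighted. As *Tnfrsf9* is the targeted gene, cells with like counts of it need not match between the libraries. What part the lower *Tnfrsf9* had in the differences was not tested.

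In CD8 T cells the link of *Ly6a* to *Tnfrsf9* ran the other way. Wild-type CD8 T cells with at least 1 *Tnfrsf9* UMI held 483 CPM of *Ly6a* and those with 0 held 1130 CPM, a log2 ratio of -1.23 (-1.32 to -1.14). In knockout CD8 T cells it was 506 against 1004 CPM, or -0.99 (-1.10 to -0.88). Depth moved with these groups, with medians of 9706 and 5609 UMIs in the wild type, but the thinned *Ly6a* shares were ordered alike, at 39.3% against 65.8%. For *Lilrb4a* the log2 ratio in CD8 T cells was 0.07 (-0.51 to 0.62) in the wild type and 0.82 (0.26 to 1.35) in the knockout.

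**Figure D4:**
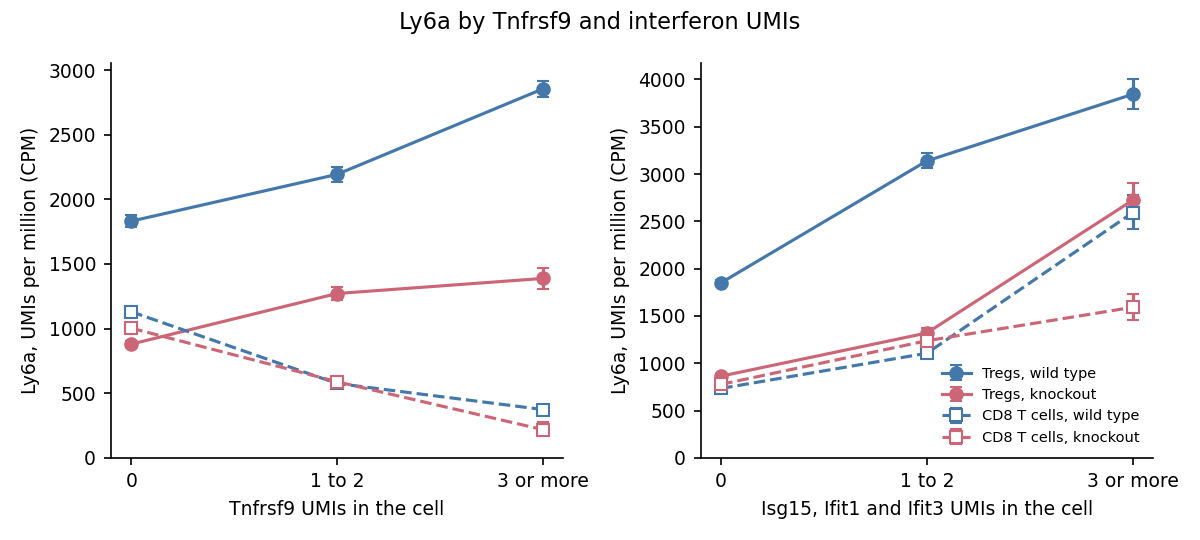
*Ly6a* level in CPM with exact 95% Poisson intervals in Tregs (filled circles) and CD8 T cells (open squares) of the wild-type (blue) and knockout (red) libraries, grouped by 0, 1 to 2 and 3 or more UMIs of *Tnfrsf9* or of the interferon genes. *Ly6a* is higher with more interferon UMIs in both classes, and with more *Tnfrsf9* UMIs it is higher in Tregs (1831 to 2854 CPM in the wild type) and lower in CD8 T cells (1130 to 374 CPM).

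Combining both measures, 577 wild-type and 828 knockout Tregs had neither an interferon nor a *Tnfrsf9* UMI, and there the log2 ratios were -0.94 (-1.51 to -0.37) for *Axl*, -1.30 (-2.14 to -0.49) for *Lilrb4a* and -0.95 (-1.02 to -0.88) for *Ly6a*. Weighting the 4 combined groups of knockout Tregs as in the wild type gave -1.17, -1.28 and -0.96. In Tregs with both kinds of UMI, *Ly6a* was at -1.004 (-1.09 to -0.92), while the intervals of *Axl* (-0.71, -1.62 to 0.12) and *Lilrb4a* (-1.11, -2.87 to 0.34) included 0, on 16 and 5 knockout UMIs.

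**Figure D5:**
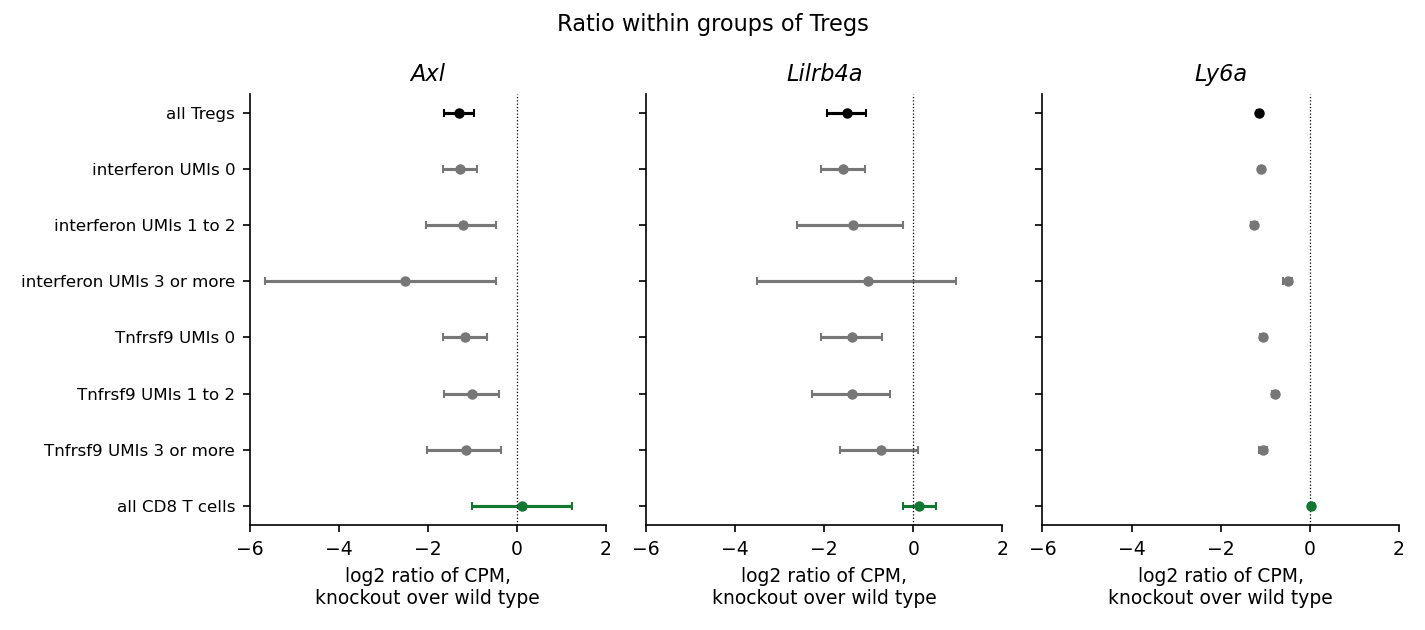
Log2 ratio of knockout over wild-type CPM for each gene, in Tregs as a whole (black), in groups of Tregs by interferon UMIs and *Tnfrsf9* UMIs (grey) and in CD8 T cells (green), with exact 95% intervals and a dotted line at 0. The Treg ratios drawn lie below 0, that nearest to 0 being *Ly6a* with 3 or more interferon UMIs (-0.50), and the intervals of *Lilrb4a* with 3 or more interferon or *Tnfrsf9* UMIs cross 0.

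Transcripts on marker lists of other cell types were counted in the Tregs as well, and some differed between the libraries. The CD8 T cell list, with *Cd8a* and *Cd8b1* at 0 by definition, summed to 1160 CPM in wild-type and 722 CPM in knockout Tregs, mostly from *Ccl5* and *Nkg7*, and at least 2 of its genes were present in 35.4% and 22.6% of Tregs. The paper also names *Ccl5* and *Nkg7* for a Th1 cluster of CD4 T cells, so Tregs holding them need not be another cell type. Without the Tregs holding at least 2 genes of the list, the log2 ratios were -1.77 for *Axl*, -1.14 for *Lilrb4a* and -1.28 for *Ly6a*. The myeloid list, which matters for *Axl* and *Lilrb4a* because both are used by myeloid cells, summed to 309 and 259 CPM, of which *Cst3* gave 2664 of 2745 and 2015 of 2113 UMIs. *Csf1r* and *C1qc* were at 0 in both libraries and *Lyz2* had 4 and 12 UMIs. Without the 3.80% and 3.601% of Tregs that held at least 2 myeloid genes, the log2 ratios were -1.36, -1.43 and -1.16.

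MHC class II transcripts, mostly *Cd74*, were at 154 CPM in wild-type and 83.0 CPM in knockout Tregs. *Ly6a* was higher in wild-type Tregs with such a UMI than in those without (log2 1.05, 1.01 to 1.09), as was *Lilrb4a* (1.29, 0.85 to 1.74), while the interval of *Axl* included 0 (0.07, -0.28 to 0.42). In knockout Tregs the same ratios were 0.87 (0.81 to 0.93) for *Ly6a*, 0.67 (-0.14 to 1.45) for *Lilrb4a* and 0.98 (0.40 to 1.56) for *Axl*. In Tregs with none, the ratios of knockout over wild type were -1.63 for *Axl*, -1.07 for *Lilrb4a* and -0.94 for *Ly6a*. What part these transcripts had in the differences was not tested.

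Among the relatives and partners of the members, few shared the size of their difference. Of the other TAM genes, *Tyro3* had 25 and 21 UMIs in Tregs, *Mertk* 2 and 1, and the ligand *Gas6* 3 and 4. The ligand *Pros1* alone reached 50 UMIs, at a log2 ratio of 0.41 (0.04 to 0.78). Of the receptor family of *Lilrb4a*, *Lilr4b* alone reached that count. Of 5 signalling partners and ligands, 0 were past 1.5-fold, where 2.19% of all genes tested in Tregs were lower and 5.21% higher by that much: *Ptpn6*, which encodes the phosphatase SHP-1, stood at -0.47 (-0.62 to -0.32), *Itgav*, an integrin chain, at -0.30 (-0.38 to -0.22), *Inpp5d*, the lipid phosphatase SHIP-1, at 0.08 and *Ptpn11*, the phosphatase SHP-2, at 0.21. The median over the 5 was 0.08.

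Of 5 other Ly6 family genes with 50 UMIs, 1 was past 1.5-fold, *Lypd1* at -0.86 (-1.27 to -0.46), a count of 1 that is too small to set against the 2.19% of all genes. *Ly6e*, which is also induced by interferon, stood at -0.30 (-0.36 to -0.23), and the median was -0.30. In CD8 T cells *Ly6e* was at -0.74 and *Ly6d* at -1.43, while *Plaur*, the urokinase receptor, was at 1.89.

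Of 34 interferon-induced genes, 7 were more than 1.5-fold lower and 2 higher in knockout Tregs, and the median was -0.17, against 2.19% lower, 5.21% higher and a median of 0.04 over all genes tested. Those lowest included the antiviral genes *Dhx58* (-1.07), *Oasl2* (-1.04) and *Mx1* (-0.99), while *Samd9l* (1.24) and *Slfn5* (0.80) were higher. *Isg15* stood at -0.42, *Ifit1* at -0.81 and *Ifit3* at -0.84. In CD8 T cells 3 of 31 were lower and 5 higher, with a median of 0.11, where 6.8% and 11.4% of all genes were. None of the 9 genes for interferon-gamma, the interferon receptors and their signalling was past 1.5-fold in Tregs, with a median of 0.16.

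The suppressive Treg markers had a median of -0.17 over 8 genes, against 0.04 over all genes tested. *Lag3*, an inhibitory receptor, was past 1.5-fold at -0.61, a count of 1 too small to set against the 2.19% of all genes. *Itgae* stood at -0.47, *Tbx21* at -0.30, *Cxcr6* at -0.19 and *Ctla4* at -0.14. With *Lag3* these were the 5 of the 8 below 0. The costimulatory receptor gene *Icos* stood at 0.09 (0.02 to 0.16), while *Tigit* at 0.08 and *Ccr8* at 0.27 had intervals that include 0.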

How the data were processed

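Islet T cells of 2 NOD strains were measured by droplet single-cell RNA sequencing (10x Genomics 3' chemistry, version 2), with 1 pooled library per strain, so no library could stand as a replicate. Per the submitters' processing notes the reads were processed with Cell Ranger 7.0.0 on mm10. The authors deposited filtered matrices of raw UMI counts per gene and cell, and these counts were used unchanged. No doublets were called or removed beyond the limit of 5000 genes per cell. That limit left out 65 wild-type and 55 knockout cells, and 271 cells of each library fell in neither class.

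The members, gene lists and comparisons were chosen with earlier results of these data known. UMIs were summed over the cells of a class and divided by the class total. Exact Poisson, exact binomial (Clopper-Pearson), Newcombe and exact conditional binomial intervals were computed for sums, shares, differences and ratios, and a sum of 0 was set to 0.5 in a ratio. No test between genotypes was made. Cells were thinned to 2000 UMIs with seed 1. All CD8 T cells, in place of the planned resting subset, served as the background for detection. A planned split of Tregs by state and some marker genes are not reported here.

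Named were the members, the genes of the related-gene lists, the 5 genes with at least 100 wild-type Treg UMIs of highest Spearman correlation with each member, and the 2 genes next to each member on either side in the order of Treg ratios. Marker lists of other cell types were counted. The NK and mast cell lists were at or under 1.72 CPM in Tregs, the endocrine and acinar lists at or under 22.0 CPM, the stromal list at 68.2 and 94.6 CPM, the plasmacytoid dendritic cell list, mostly *Bst2*, at 133 and 119 CPM, and the T cell list at 3760 and 3064 CPM. Alternatives were other cell filters and definitions, equal weight per cell, thinning, TMM factors, leaving out cells, and other thresholds. The scripts were checked on simulated counts. Python 3.11.15, numpy 2.4.6, scipy 1.17.1, pandas 2.3.3, Biopython 1.88 and edgeR 4.0.16 (R 4.3.3, for TMM factors only) were used.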

Additional observations from a re-analysis of the deposited data

Results flagged for a closer look

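By the choice of the members, the ratio of knockout over wild type pointed down in Tregs, while it did not in CD8 T cells. It was -1.30 against 0.11 for *Axl*, -1.49 against 0.14 for *Lilrb4a* and -1.14 against 0.039 for *Ly6a* on the log2 scale. The CD8 intervals include 0, and the signs in CD8 T cells turned under some alternatives, that of *Ly6a* under TMM scaling among them. For *Lilrb4a* and *Ly6a* this is thus a contrast of a lower level with a level near even over the CD8 class as a whole. The CD8 interval of *Axl* (-1.001 to 1.24) is too wide to call its level even. The CD8 class held fewer *Tnfrsf9*-positive cells in the knockout, 11.8% against 26.9%, but *Tnfrsf9* is the targeted gene. With the knockout *Tnfrsf9* groups weighted as in the wild type, the CD8 ratios were 0.27, 0.38 and -0.18 for *Axl*, *Lilrb4a* and *Ly6a*. Such groups need not hold matching cells in the libraries, so these values do not stand for a matched mix. What part the mix of cells had was not tested. The contrast of Tregs with CD8 T cells was not tested, with 1 library per genotype.

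The link of *Ly6a* to *Tnfrsf9* had opposite signs in the classes. In Tregs the log2 ratio of cells with at least 1 *Tnfrsf9* UMI over cells with 0 was 0.48 for the wild type and 0.57 for the knockout, and in CD8 T cells it was -1.23 and -0.99. Both libraries showed this pattern. The difference was not tested.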

How the results depend on the processing

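No paired analysis was possible because each genotype has 1 library, and for the same reason no replicate could be left out. No direction of a Treg ratio turned under any alternative. The log2 ratio in Tregs ranged from -1.77 to -1.10 for *Axl*, from -1.69 to -1.04 for *Lilrb4a* and from -1.28 to -0.96 for *Ly6a*. It moved beyond its counting interval for *Axl* with Tregs defined by a *Foxp3* or *Il2ra* UMI (-1.69, 685 and 749 cells) and without Tregs holding CD8 T genes (-1.77), and for *Lilrb4a* weighted by *Tnfrsf9* (-1.04). For *Ly6a*, whose interval is narrow, it moved with equal weight per cell (-1.18), thinning (-1.23), TMM scaling (-1.18), the *Foxp3* or *Il2ra* definition (-1.02), without CD8 T genes (-1.28) and weighted by interferon (-1.06), *Tnfrsf9* (-0.97) or both (-0.96). In CD8 T cells *Lilrb4a* moved to -0.31 with at least 1 CD8 UMI and no lineage UMI. Over all alternatives it ranged there from -0.31 to 0.23, and *Axl* from -0.26 to 0.29. *Ly6a* there was -0.023 with stricter cell limits, -0.040 with equal weight, -0.14 thinned, -0.020 with TMM, and -0.064 under the other CD8 definition. The thinned *Axl* ratio there is not given, as both counts were under 3.

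The interferon link of *Ly6a* was 0.77 with stricter cell limits, 0.72 thinned, 0.76 without the 3 richest cells, 1.05 at 3 or more UMIs, 0.90 without CD8 T genes and 0.52 with *Ifit1* and *Ifit3* alone. Its *Tnfrsf9* link was 0.57, 0.76 with equal weight, 0.69 thinned, 0.27 with a *Foxp3* or *Il2ra* UMI, 0.64 at 3 or more UMIs and 0.65 without CD8 T genes. The share differences moved when thinned, to -3.87, -2.68 and -22.1 points for *Axl*, *Lilrb4a* and *Ly6a*, and to -11.0 for *Axl* with a *Foxp3* or *Il2ra* UMI. Genes more than 1.5-fold lower in Tregs numbered 414 at 20 UMIs and 53 at 200, against 222, and those higher 267 at 200 against 529. In CD8 T cells at 200 UMIs, 329 were lower against 664 and 650 higher against 1117, since fewer genes were counted. The analyses without CD8 T genes, the weighting and the removal of shared barcodes were added after the data were seen. At 60 to 284 UMIs, *Axl* and *Lilrb4a* cannot place differences within small groups of cells.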

Other observations

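Cells outside both classes and cells above the gene limit held the members too. Among the 271 cells of each library in neither class, *Axl* stood at 29.8 CPM in the wild type and 13.2 CPM in the knockout, *Lilrb4a* at 11.9 and 7.44 CPM and *Ly6a* at 1888 and 1073 CPM. Among the 65 and 55 cells above 5000 genes, with medians of 32047 and 30875 UMIs, *Axl* stood at 9.38 and 3.30 CPM, *Lilrb4a* at 3.75 and 4.40 CPM and *Ly6a* at 909 and 558 CPM. *Axl* and *Ly6a* were lower in the knockout in both sets, and *Lilrb4a* rested there on 22 and 13 and on 8 and 8 UMIs.

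By depth, the Treg ratio of *Ly6a* was -0.998 in cells under 3000 UMIs, -1.34 at 3000 to 6000 and -1.01 at 6000 or more. For *Axl* it was -2.79 under 3000 UMIs, -1.37 and -1.11 in the deeper groups, and for *Lilrb4a* -0.59 (-1.97 to 0.70), -1.46 and -1.99.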
